A study of Mus musculus with 4 samples.

Results

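The loci examined here were 10 genes known as transcriptional targets of STAT5, a signal-activated transcription factor: Cish, Socs1, Socs2, Socs3, Pim1, Bcl6, Ccnd2, Ccnd3, Id2 and Osm. They were taken by name, and all 10 were found among the 21120 protein-coding genes that could be placed on the mm9 mouse genome. For each gene the called peaks that overlapped the gene body plus 20 kb on each side (the gene window) were collected. The cells were a C57BL/6J pre-B cell leukemia transformed with BCR-ABL1, overexpressed on a p19 null background, and every library came from these cells. PHF6, H3K27ac and H3K27me3 were each mapped in 1 library by ChIP-seq, the sequencing of immunoprecipitated chromatin, and an input library, without antibody, was not analysed here. Nothing in the labels tells how many cultures, clones or animals these cells stand for. With 1 library per antibody no value has a replicate error and no p-value was computed, so counts are set beside the same counts over all genes.

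STAT5 is phosphorylated by JAK kinases downstream of cytokine receptors, dimerises and binds palindromic DNA elements. The BCR-ABL1 fusion tyrosine kinase activates STAT5 without cytokine, and STAT5 is required for the growth of BCR-ABL1 leukemia in mice. Its targets include inhibitors that feed back on the pathway, as well as genes of survival, the cell cycle and cell identity. H3K27ac marks active promoters and enhancers, H3K27me3 is the Polycomb mark, and PHF6 is a chromatin-associated PHD-finger protein. Peaks are maps of protein or mark, not of transcription, and STAT5 itself was not profiled.

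Gene positions came from the GRCm38 build and were moved to mm9 by a local offset, the shift at which tall H3K27ac summits (height 200 or more) best met annotated start sites. Between 4 (Id2) and 52 (Cish) pairs matched at the chosen offset. For Id2 the next best offset had 3 matches. Offsets were first fixed along each chromosome where at least 6 pairs matched and the next best offset was exceeded by at least 1.5 times, and each gene took one from nearby. The matches around Id2 itself meet neither limit, alone among the 10 genes, so by matches its position and distances are the least certain. With other settings the members moved by at most 428 bp (Socs2), and Id2 by 15 and 0 bp. Distances under about 428 bp are therefore not resolved. Of 7293 tall H3K27ac summits, 73.5% lay within 1 kb of a placed start site. The offsets were chosen to bring these same summits to start sites, so this share is no test of the placement. The fit also favours H3K27ac at start sites, for members and for all genes. Start sites with strand were at hand for 7 members, and Socs2, Ccnd2 and Osm are described from their gene ends. Summit height is the authors' pileup value. It reached 400 in each list, and whether this is an upper limit was not tested. Heights were read within 1 list.

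Among pre-B markers with a placed start site, 6 of 9 had H3K27ac within 1 kb of it: Cd79a, Pax5, Ebf1, Vpreb1, Igll1 and Blnk. This share is near that of all genes (58.3%), so the count alone does not mark the cells as pre-B. Rag1 and Rag2, the recombinase genes, had 0 peaks of any list in their windows, and Dntt had none at its start site. H3K27ac was at the start site of 2 of 6 T cell markers (Lck, height 109, and Bcl11b, height 15), of 1 of 5 erythroid markers (Klf1, 283) and of 0 of 5 myeloid markers. The window of Cdkn2a, which encodes p19, held 7 H3K27ac peaks, with H3K27ac of 300 and PHF6 of 48 within 1 kb of a start site. These lists do not show which of its exons remain.

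All 10 STAT5 target genes had PHF6 and H3K27ac in their windows, and all 7 with a start site had both within 1 kb of it. Over all genes, 84.4% of windows held PHF6 and 73.8% held H3K27ac. At start sites the shares were 63.8% for PHF6, 58.3% for H3K27ac and 52.7% for both. The count of 10 in 10 therefore stood against a background that most genes met. Genes took an offset even where few pairs matched, and wrongly placed start sites would lower the start-site shares over all genes. How many were so placed was not counted. In 9 of 10 windows, all but that of Socs2, there were 3 or more PHF6 peaks, against 56.9% of all windows. The 10 windows held 84 PHF6 peaks, 68 H3K27ac peaks and 7 H3K27me3 peaks. The median window had 8 PHF6 and 4.5 H3K27ac peaks, against 3 and 2 over all genes. The members' windows were shorter than those of all genes (median 45.7 kb against 57.1 kb), and per 10 kb the medians were 1.37 against 0.428 for PHF6 and 0.921 against 0.223 for H3K27ac. Genes with H3K27ac at the start site had a median of 5 PHF6 and 3 H3K27ac peaks. Their values per 10 kb were not computed, so the contrast per 10 kb is with all genes only. Of the members' peaks, 26 of 84 PHF6 and 17 of 68 H3K27ac peaks lay nearest to the start of another gene, most of them at Ccnd3 and Osm.

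**Figure D1:**
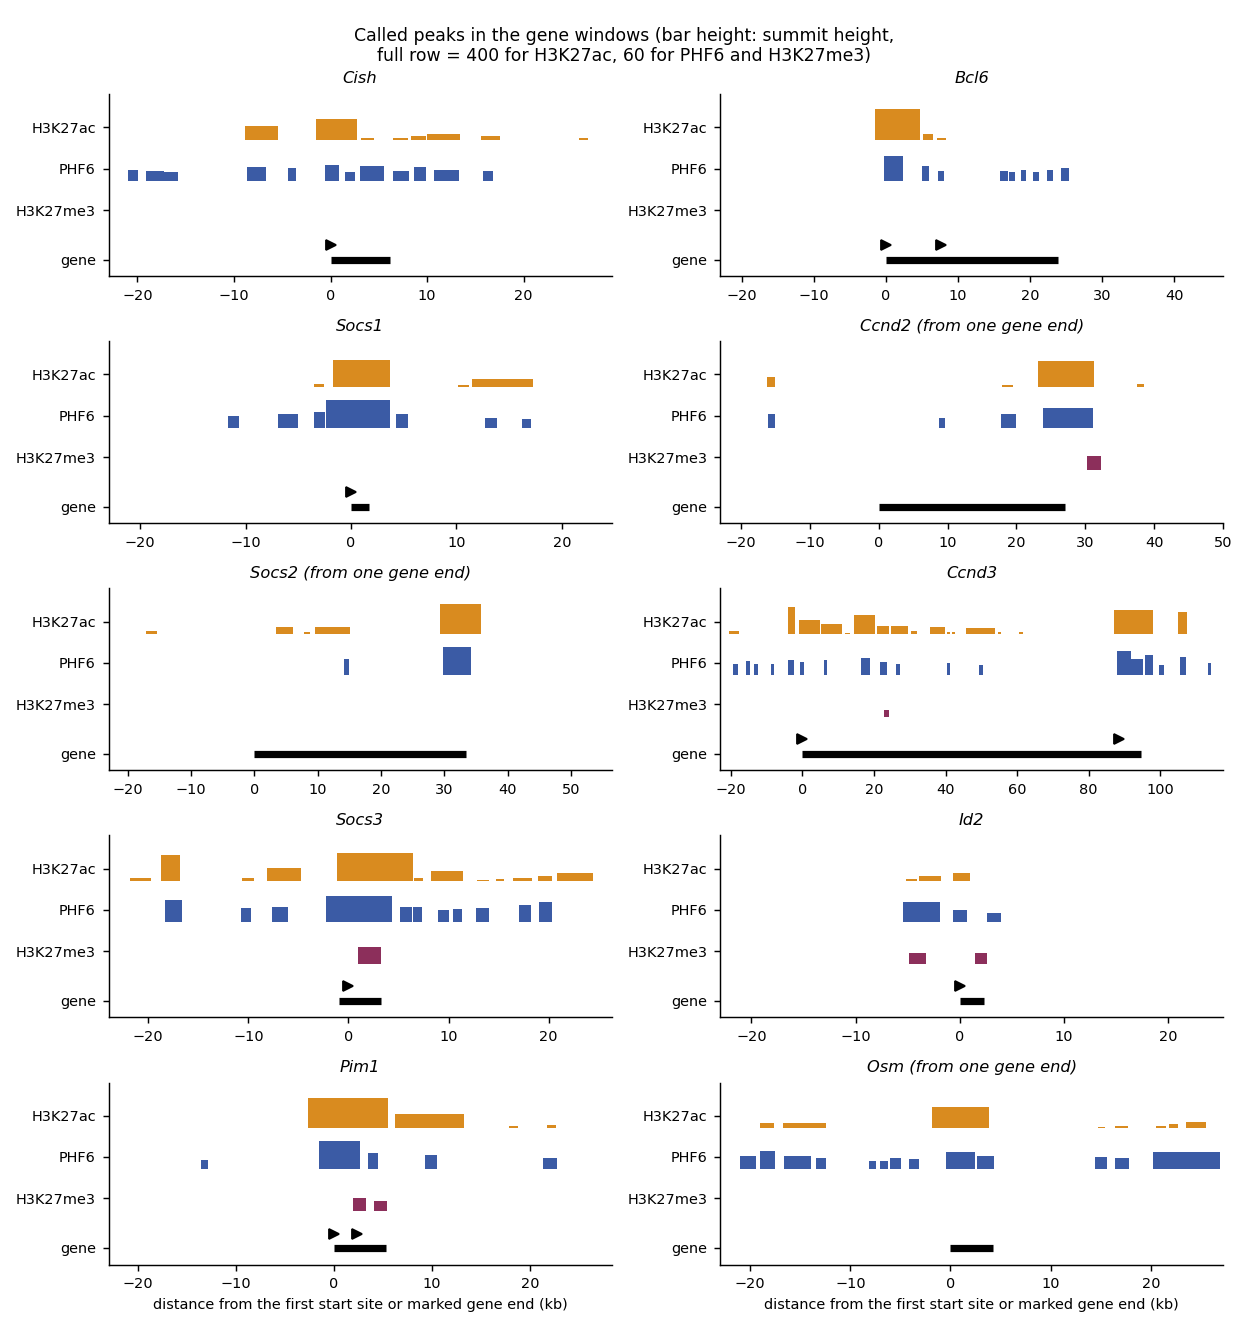
Called peaks in the 10 gene windows. The horizontal axis is the distance in kb from the first start site in the direction of transcription, or from one gene end for Socs2, Ccnd2 and Osm. Black bars are genes and triangles start sites. Coloured bars span each peak, and their height is the summit height, scaled separately for H3K27ac and for the other lists. The tallest H3K27ac bar sits over the start site or a gene end in 9 windows and, at Ccnd3, just upstream of the gene.

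The first 4 genes, Cish and Socs1 to Socs3, encode SH2-domain inhibitors that are induced by cytokines and damp JAK-STAT signalling. Cish, the founding member of this family, had 12 PHF6 peaks with heights of 17 to 30, 8 H3K27ac peaks with heights of 22 to 246 and 0 H3K27me3 peaks. One of the 8, with a height of 165, lay 6.93 kb upstream, nearest to Mapkapk3. The Cish start site lay in an H3K27ac peak at chr9:107197499-107201778 (mm9, height 246) that held a PHF6 peak of height 30, with summits 33 bp apart. A string of 5 H3K27ac peaks ran on through and past the gene to 16.4 kb from the start, with heights of 22 to 75, and each of them overlapped PHF6. The 4 PHF6 peaks without H3K27ac were all upstream. Cish was thus rich in peaks and unremarkable in height: 93.8% of genes had fewer H3K27ac peaks, while 41.6% of genes with a peak had a lower tallest summit.

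Socs1, whose product blocks JAK catalytic activity, had 7 PHF6 peaks (heights 17 to 51), 4 H3K27ac peaks (19 to 325) and 0 H3K27me3 peaks. The gene is 1.73 kb long and lay whole inside an H3K27ac peak of 5.44 kb (chr16:10781904-10787346, height 325) and a PHF6 peak of 6.13 kb (height 51). These 2 summits were 1276 bp apart, PHF6 0.44 kb upstream of the start site and H3K27ac 0.836 kb downstream. A second broad H3K27ac peak of 5.80 kb (height 96) lay 15.5 kb downstream and held 2 low PHF6 peaks. On the other side stand the protamine genes and Tnp2, which are expressed in sperm precursors. The 2 PHF6 peaks nearest to Prm2 and Prm1 (heights 25 and 23) were without H3K27ac.

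Socs2, a regulator of growth hormone signalling, had the fewest PHF6 peaks of the 10. Its 2 PHF6 peaks had heights of 51 and 30, its 5 H3K27ac peaks 22 to 367, and H3K27me3 had 0. The taller PHF6 peak and the H3K27ac peak of height 367 (chr10:94876043-94882516) overlapped at one gene end. The lower PHF6 peak overlapped an H3K27ac peak of height 79 inside the gene, with summits 3730 bp apart. The 3 H3K27ac peaks without PHF6 had heights of 30, 80 and 22. One end of the gene was therefore tall in both lists, while 3 of the 4 H3K27ac peaks elsewhere were without called PHF6.

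Socs3, an inhibitor of gp130-type cytokine receptors, had the most H3K27ac peaks of the 4 inhibitor genes. It had 11 PHF6 peaks (heights 23 to 47), 12 H3K27ac peaks (17 to 339) and 1 H3K27me3 peak (31). All 11 PHF6 peaks overlapped H3K27ac. At the start site an H3K27ac peak of 7.64 kb (chr11:117824166-117831804, height 339) and a PHF6 peak of 6.62 kb (height 47) had summits 25 bp apart. A further tall H3K27ac peak (314) with PHF6 (40) lay 17.8 kb upstream and nearer to the start of Pgs1 than to Socs3. Over all genes 98.7% had fewer H3K27ac peaks than Socs3. The Socs3 promoter carries 1 copy of the STAT element, TTCNNNGAA, which reads the same on both strands. It begins 154 bases before the start site, and it is shown here because the start-site peaks of both lists cover this stretch (RefSeq, GRCm38.p6, chr11:117969367-117969616, minus strand). Capitals mark the match.

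Socs3 promoter: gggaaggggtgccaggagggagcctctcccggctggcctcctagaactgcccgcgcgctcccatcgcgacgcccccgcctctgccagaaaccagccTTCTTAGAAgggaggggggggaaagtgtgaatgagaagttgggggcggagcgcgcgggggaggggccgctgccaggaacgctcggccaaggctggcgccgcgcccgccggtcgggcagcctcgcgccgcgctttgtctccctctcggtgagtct

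Pim1 encodes a serine/threonine kinase that promotes survival and cooperates with oncogenes in B cell tumours. It had 5 PHF6 peaks (heights 17 to 52), 4 H3K27ac peaks (21 to 358) and 2 H3K27me3 peaks (23 and 18). Its PHF6 height of 52 was the highest of the 10 genes. An H3K27ac peak of 8.19 kb (chr17:29625190-29633379, height 358) spanned the whole gene, and its summit lay 103 bp from that of PHF6. Both H3K27me3 peaks were inside this acetylated stretch and overlapped PHF6 peaks. Their summits lay 2.21 and 4.70 kb from the H3K27ac summit, so the marks overlapped as intervals while their summits were apart. A second broad H3K27ac peak (6.98 kb, height 170) lay downstream with PHF6 of height 27.

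Bcl6 encodes a transcriptional repressor that represses p53 and is induced in BCR-ABL1 leukemia when the kinase is inhibited. STAT5 is described as a repressor of Bcl6, unlike the activated targets. The gene had the tallest H3K27ac summit of the 10 (368, chr16:23984332-23990593) at its first start site, with a PHF6 summit of height 46 at 11 bp. H3K27me3 had 0 peaks. The second start site, 7.57 kb further into the gene, had only low peaks of H3K27ac (26) and PHF6 (18), and between them stood an H3K27ac peak of 65 with PHF6 of 28. Beyond the second start no further H3K27ac peak was called in the window. There 6 PHF6 peaks with heights of 16 to 23 stood in a row over 9.64 kb across the far end of the gene. The members together had 25 PHF6 peaks without H3K27ac.

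Both Bcl6 promoters are shown because the promoter with the lower peaks holds more STAT elements. The first promoter, under the tall peaks, has 1 match, 118 bases before the start site. The second, under the low peaks, has 3 matches, 168, 122 and 88 bases before it, and 2 of these, TTCCTGGAA and TTCCGGGAA, have the stricter form TTCCNGGAA. The stretches are chr16:23988853-23989102 and chr16:23981284-23981533 (RefSeq, GRCm38.p6, minus strand), with matches in capitals.

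Bcl6 first promoter: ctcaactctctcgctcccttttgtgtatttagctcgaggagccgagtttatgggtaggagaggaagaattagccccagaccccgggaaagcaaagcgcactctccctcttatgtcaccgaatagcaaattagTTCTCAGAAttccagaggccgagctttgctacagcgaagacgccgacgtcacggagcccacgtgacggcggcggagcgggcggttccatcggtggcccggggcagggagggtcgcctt

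Bcl6 second promoter: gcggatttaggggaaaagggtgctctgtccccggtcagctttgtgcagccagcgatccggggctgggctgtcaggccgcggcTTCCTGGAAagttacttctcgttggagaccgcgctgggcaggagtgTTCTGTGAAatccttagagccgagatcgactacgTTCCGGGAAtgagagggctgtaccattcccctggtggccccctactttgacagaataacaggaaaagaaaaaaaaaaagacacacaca

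In the RefSeq table, which holds 300 bases from 250 before to 50 after a start, 2726 of 32851 promoters (8.30%) contained TTCNNNGAA and 377 (1.15%) contained TTCCNGGAA. Of the members' 10 promoters in the table, 4 held the first form, at Bcl6, Socs3 and Cish. At Cish both matches, TTCCTGGAA and TTCTTGGAA, begin at the listed start site or 11 bases after it. No match was found in the 300 bases of Socs1, Pim1, Ccnd3 and Id2. A form with 4 bases between the arms TTC and GAA was in 0 of the members' promoters and in 6.95% of all. A match says only that the letters are there, and STAT5 binding was not measured.

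Ccnd2 and Ccnd3 encode D-type cyclins, which activate CDK4 and CDK6 in early cell cycle. Ccnd2 had 4 PHF6 peaks (heights 18 to 37), 4 H3K27ac peaks (20 to 317) and 1 H3K27me3 peak (24). At one gene end an H3K27ac peak of 8.09 kb (chr6:127098130-127106221, height 317) overlapped the widest PHF6 peak of the 10 windows (7.28 kb, height 37), with summits 2190 bp apart. The H3K27me3 peak of 2.06 kb lay across the outer edge of this acetylated peak, with its summit 3.73 kb beyond the gene end. Ccnd3, by far the longest gene at 94.6 kb, had 18 PHF6 peaks (18 to 44), 17 H3K27ac peaks (17 to 321) and 1 H3K27me3 peak (12), the lowest of the 7. Over all genes 99.7% had fewer H3K27ac peaks, but its window was also long (134.6 kb). Per 10 kb Ccnd3 had 1.26 H3K27ac peaks, against a median of 0.223 over all genes. This was fewer than at Socs3 (2.71), Osm (1.81) and Cish (1.73) and more than at the other members. Both start sites were acetylated, the first with a height of 174 and PHF6 of 24, and the second, 88.4 kb on, with 287 and PHF6 of 44. The peak at the second start was the widest H3K27ac peak at a member's start site (10.8 kb). In between, H3K27ac peaks with heights of 17 to 231 filled the first part of the gene, and 6 of the 17 were without PHF6. The summit of 321 lay upstream and nearest to Taf8, and another of 269 lay nearest to Bysl. Among H3K27ac peaks nearest to a Ccnd3 start site the tallest was 287.

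Id2, a helix-loop-helix protein that blocks E proteins and thereby B cell differentiation, stood lowest in H3K27ac. It had 3 PHF6 peaks (heights 17 to 36), 3 H3K27ac peaks (23 to 102) and 2 H3K27me3 peaks (20 and 19). The start site had H3K27ac of 102 and PHF6 of 22, and 23.5% of genes with an H3K27ac peak had a lower tallest summit than this. The taller PHF6 peak (36) lay 2.67 kb upstream and overlapped 2 H3K27ac peaks and 1 H3K27me3 peak (chr12:25784344-25786035). The other H3K27me3 peak, 1.93 kb into the gene, overlapped neither list and was the sole one of the 7 to do so. H3K27me3 thus stood on both sides of the acetylated start.

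Osm encodes oncostatin M, a cytokine that signals through gp130 receptors and sits next to the related gene Lif. It had 13 PHF6 peaks (heights 16 to 34), 8 H3K27ac peaks (14 to 255) and 0 H3K27me3 peaks. A single H3K27ac peak of 5.71 kb (chr11:4134694-4140399, height 255) covered most of the gene, and 2 PHF6 peaks (32 and 25) overlapped it. The other 7 H3K27ac peaks, with heights of 14 to 79, were all nearest to Lif or Castor1. All 8 overlapped PHF6. The tallest PHF6 summit of the window (34) was nearest to Castor1. Another 4 PHF6 peaks of 16 to 21 without H3K27ac stood on one side of the gene.

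By tallest H3K27ac summit the order was Bcl6 (368), Socs2 (367), Pim1 (358), Socs3 (339), Socs1 (325), Ccnd3 (321), Ccnd2 (317), Osm (255), Cish (246) and Id2 (102). The median was 323, against 278 over all genes with a peak, and 7 of 10 stood above that. Exact 95% Poisson intervals, which cover counting error only, overlapped from Bcl6 (331 to 408) down to Ccnd2 (283 to 354). Those of Bcl6 and Socs2 run past 400, the largest height in the lists. No interval takes account of a possible upper limit of height, which was not tested. The interval of Osm (225 to 288) overlapped those of Ccnd3, Ccnd2 and Cish. Cish (216 to 279) overlapped Osm alone, and Id2 (83.2 to 124) overlapped none. By tallest PHF6 summit Pim1 (52), Socs1 (51), Socs2 (51), Socs3 (47), Bcl6 (46), Ccnd3 (44), Ccnd2 (37), Id2 (36), Osm (34) and Cish (30) followed each other with overlapping intervals from 38.8 to 68.2 for Pim1 to 20.2 to 42.8 for Cish. The median was 45 against 35 over all genes, with 8 of 10 above it. So the PHF6 intervals of all 10 genes overlapped, which does not show that their heights are alike, while Id2 stood apart by H3K27ac. Each PHF6 height is also the tallest of 2 to 18 peaks, a choice that the intervals leave out.

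**Figure D2:**
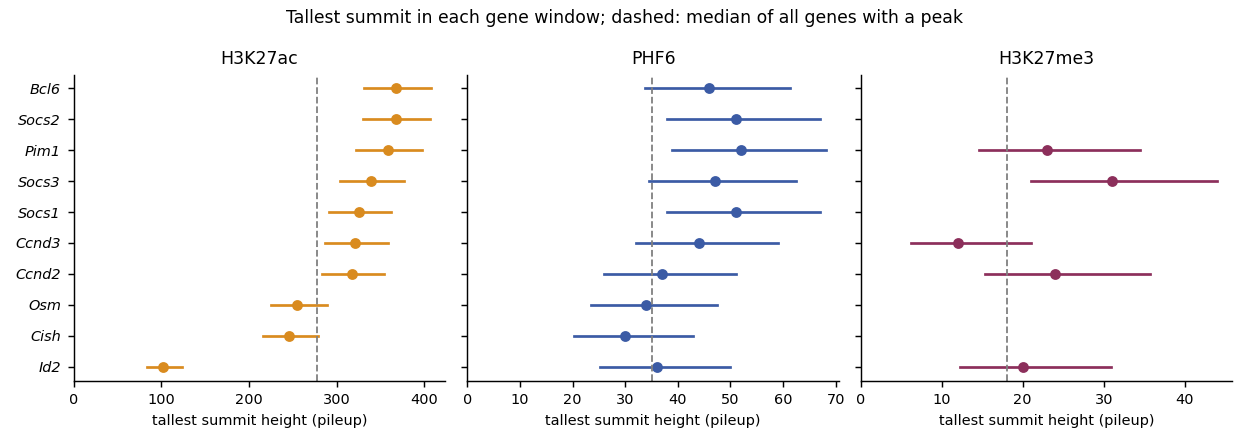
Tallest summit height (pileup) in each gene window for H3K27ac, PHF6 and H3K27me3, 1 library each. Points are heights, lines exact 95% Poisson intervals, and the dashed line is the median of all genes with a peak of that list (278, 35 and 18). Id2 lies far to the left for H3K27ac only among the 10 genes.

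At the start site itself 6 of 7 genes had an H3K27ac peak wider than the median of all acetylated start sites (1.99 kb), between 4.28 kb at Cish and 10.8 kb at Ccnd3, the exception being Id2 (1.66 kb). For PHF6, 5 of 7 were wider than the median of 1.55 kb, the exceptions being Cish (1.39 kb) and Id2 (1.36 kb). Among all 10075 genes with H3K27ac at the start, 90.3% also had PHF6 there, and the median start-site heights were 251 for H3K27ac and 35 for PHF6. The taller members (Bcl6, Pim1, Socs3, Socs1 and Ccnd3) stood above both medians, Cish just below both (246 and 30) and Id2 well below both (102 and 22).

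**Figure D3:**
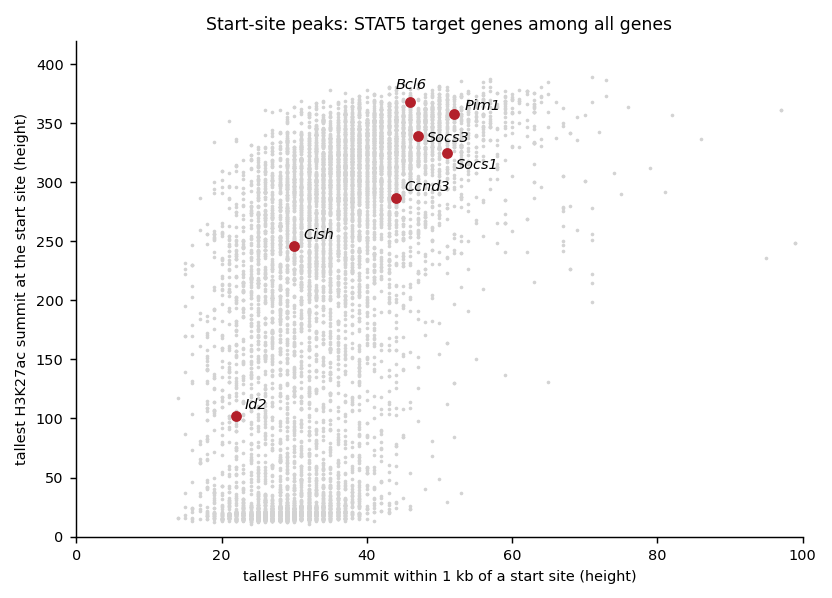
Tallest PHF6 summit (horizontal) and tallest H3K27ac summit (vertical) within 1 kb of a start site, as pileup heights, for the 9096 genes with both (grey) and the 7 STAT5 target genes with a start site (red). The horizontal axis ends at 100, beyond which 29 genes lie. Of the 7 genes, 5 lie in the upper middle of the panel, with Cish below and to the left of them and Id2 at the lower left.

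PHF6 and H3K27ac largely shared their sites at these genes. Of the members' PHF6 peaks, 59 of 84 (70.2%) overlapped H3K27ac, against 33.8% of PHF6 peaks in all gene windows. In the windows of genes with H3K27ac at the start the share was 39.2%. Overlap by 1 bp also grows with the stretch that H3K27ac covers. Summed widths of H3K27ac peaks ran from 4.79 kb at Id2 (window 42.3 kb) to 62.5 kb at Ccnd3 (134.6 kb), with 29.3 kb at Socs3 (44.3 kb). Such widths were not computed over all genes, so the excess is not corrected for them. Both lists are also marked as made without local background, and what this adds to the sharing was not tested. Of the members' H3K27ac peaks, 52 of 68 (76.5%) overlapped PHF6, against 75.3% in all gene windows. Seen from the acetylation side the members were thus at the background. Every one of the 13 H3K27ac peaks of height 200 or more overlapped PHF6, as did 95.6% of the 7082 such peaks in all gene windows. H3K27ac peaks with PHF6 had a median height of 77 (14 to 368) and those without 25.5 (17 to 97). PHF6 peaks with H3K27ac had a median of 27 (17 to 52) and those without 20 (16 to 26). PHF6 summits in overlapping peaks lay a median of 188 bp from the nearest H3K27ac summit, and 22 of 59 within 100 bp. These median heights and summit distances were computed for the members alone, so they do not set the members apart from other genes. The genes differed in this: Socs3 and Socs2 had 0 PHF6 peaks without H3K27ac, and Bcl6 had 6 of 9.

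**Figure D4:**
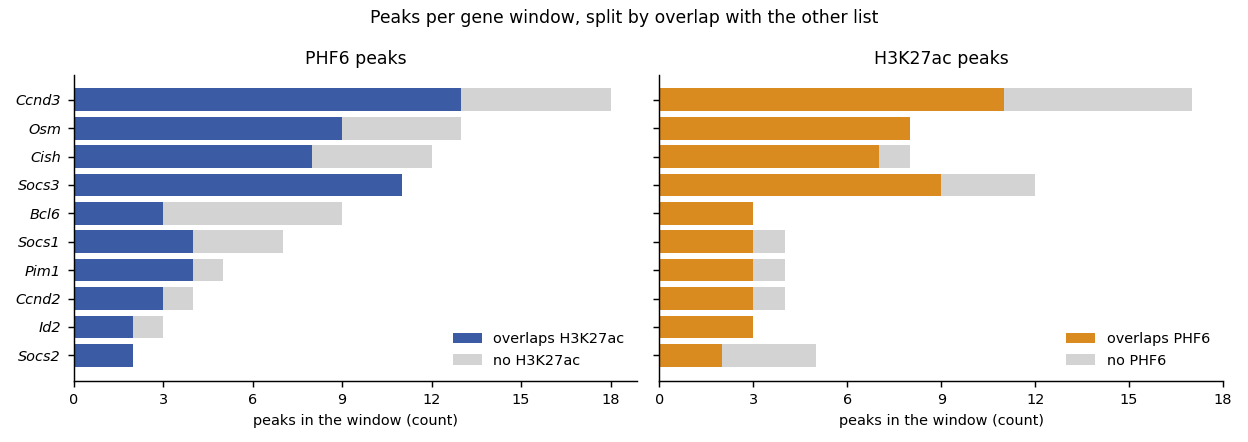
Number of PHF6 peaks (left) and H3K27ac peaks (right) in each gene window, 1 library each. The coloured part overlaps the other list by at least 1 bp and the grey part does not. Bcl6 has the largest grey part for PHF6 (6 of 9) and Ccnd3 for H3K27ac (6 of 17).

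H3K27me3 was called at 5 of 10 genes, Socs3, Pim1, Ccnd2, Ccnd3 and Id2, against 24.9% of all gene windows and 32.2% of the windows of genes with H3K27ac at the start. Within 1 kb of a start site it was at 2 of 7, Socs3 and Pim1, against 3.36% of all genes and 4.82% of genes with H3K27ac at the start. The 7 peaks had heights of 12 to 31, beside a median of 16 in the whole H3K27me3 list, and only that of Ccnd3 lay under this median. Of the 7 peaks, 6 overlapped both PHF6 and H3K27ac, against 28.7% for PHF6 and 22.1% for H3K27ac among all H3K27me3 peaks in gene windows. These shares too are not corrected for the stretch that PHF6 and H3K27ac peaks cover. All 3 lists were at the start of the same 2 genes, against 2.71% of all genes. At Pim1 the H3K27me3 summit lay 0.197 kb from the second start site, a distance too small for the placement to resolve. At Socs3 it lay 2.67 kb inside the gene and the call rests on the edge of the peak, so that with summits in place of edges the count was 1. Whether both marks were carried by single nucleosomes or single cells was not tested.

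Joined across gaps up to the stitching distance in common use for super-enhancers, the H3K27ac peaks of the genome formed 17585 regions. The largest region touching each window ranked 42nd by acetylated bases at Ccnd3 (46.2 kb), 76th at Socs3 (34.4 kb), 97th at Cish (31.8 kb) and 160th at Osm (26.5 kb). Those of Pim1 and Socs1 ranked 372nd and 487th, Ccnd2 858th, Socs2 1104th, Bcl6 1123rd and Id2 2623rd. The same regions, chosen by bases, were also ranked by summed summit height. These ranks were 83 at Socs3, 111 at Ccnd3, 132 at Cish, 331 at Osm and 793 at Pim1. They were 1030 at Socs1, 1238 at Bcl6, 2077 at Ccnd2, 6923 at Id2 and 7073 at Socs2. The region ranked for Socs2 holds the 3 H3K27ac peaks of 80, 22 and 79 inside the gene and not the peak of 367. No region was chosen by height, so these ranks do not order the windows by height, and 7073 leaves out the tallest peak of Socs2. These regions also take in neighbouring genes such as Mapkapk3, Lif and Taf8. Each rank is the best among the regions that touch a window, and the same was not computed for the windows of all genes. Without that background the ranks do not set the members apart from other genes.

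Lists of related genes were described in the same way. Among family relatives (of the SOCS, PIM, cyclin D, ID, BCL6 and LIF families), 11 of 12 genes were placed and 6 had a start site. H3K27ac was at 6 of these 6, PHF6 at 5 and H3K27me3 at 1, Id3 (height 49), which like Id2 blocks E proteins. The tallest H3K27ac summits were at Socs4 (367) and Pim3 (339). Of JAK-STAT pathway genes, 16 of 17 were placed and 15 had a start site, with H3K27ac at 14, PHF6 at 10 and H3K27me3 at 1, Ptpn6 (20), a phosphatase that opposes the pathway. Stat5a and Stat5b, the adjacent genes for STAT5, had start-site H3K27ac of 198 and 339 and PHF6 of 40 and 41. The tallest windows were those of Ptpn6 (358) and Tyk2 (341, of which 94 at its own start). Among further STAT5 targets with a start site, H3K27ac and PHF6 were each at 4 of 5. Mcl1, a survival factor, had the tallest summits (370 and PHF6 of 60), followed by Cdkn1a (329 and 50). Il2ra, the receptor gene, had neither list at its start, although its window held 6 H3K27ac peaks up to 327. These shares lie at or above the backgrounds of 58.3% and 63.8%, and no difference between lists was tested.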

How the data were processed

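Peak lists and summit lists of 3 ChIP-seq libraries (PHF6, H3K27ac, H3K27me3) were used. Per the labels, reads were 40 nt single reads from fragments of 200 to 400 bp, and the submitters' processing notes name Bowtie2, SAMtools, MACS 1.4.0 and build mm9. The score deposited with each peak starts at 60 in these lists, whose names give a threshold of 1e-6. The deposited signal is a whole-number height per summit. The PHF6 and H3K27ac lists are marked as made without local background and the H3K27me3 list is not. Whether the input served as control: not given in the sources used here. Read totals are unknown, so heights were not compared between lists.

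Offsets from GRCm38 to mm9 used start sites within 2 Mb and shifts of up to 8 Mb, matched with a Gaussian kernel of 250 bp, and were tested on simulated data. A peak was at a start site if it overlapped 1 kb on either side. Overlap meant at least 1 bp. Gene positions and promoter sequence came from RefSeq GRCm38.p6, where 7 of 10 members had a promoter. Tables were handled in Python 3.11.15 with pandas 2.3.3 and numpy 2.4.6, intervals came from scipy 1.17.1, and plots from matplotlib 3.10.9. The 10 members, the gene lists and the counts were chosen with earlier results of these data known. All 10 members were named. From the other lists Stat5a, Stat5b, genes with H3K27me3 at the start, genes without H3K27ac and the 2 tallest H3K27ac windows per list were named, and Il2ra, Stat3, Jak1, Il7r, Il2rg and the marker genes were named after their values were seen. Alternatives changed the flank, the score, the overlap rule, the start-site reach, the offset and the motif.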

Additional observations from a re-analysis of the deposited data

How the results depend on the processing

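Members with PHF6 in the window numbered 10 under every alternative that was run. At the start site PHF6 and H3K27ac were each at 7 except without regions in all 3 lists, where each was at 5. Of all values, 92 of 106 stayed within 1.5 times the count or height, or within the binomial interval of the share. Some of these could hardly move. A wider flank cannot lower the count of members with a peak, and offsets moved members by at most 428 bp against flanks of 20 kb. The count of 92 is therefore no measure of how firm the results are. With a flank of 5 kb the windows held 50 PHF6 and 41 H3K27ac peaks, and with 50 kb 158 and 107, with 57.0% of PHF6 peaks on H3K27ac. At a score of at least 100 there were 50 PHF6 peaks, and 64.2% of H3K27ac peaks overlapped PHF6. H3K27me3 at the start site was at 1 gene with the summit required, with a reach of 500 bp and with offsets over start sites within 1 Mb, and at 3 genes with a reach of 2500 bp. Without regions in all 3 lists, which removes overlapping peaks by construction, it was at 0 genes, and 1 H3K27me3 peak at 1 gene was left in the windows. The motif with 4 inner bases was in 0 members' promoters. No paired analysis was possible because there was only 1 library for each antibody. Unknown depth limits how far a missing peak can be read as absence.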

Other observations

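Among the pathway genes the window of Stat3, a relative of STAT5 that lies next to Stat5a, held 8 H3K27me3 peaks with a tallest summit of 103, while its start site had H3K27ac of 321 and PHF6 of 53 and no H3K27me3 peak. The window of Jak1, a kinase of this pathway, held 4 H3K27me3 peaks up to a height of 33, with H3K27ac of 337 and PHF6 of 52 at the start site. Il7r, the receptor chain that pre-B cells depend on for growth, had low start-site H3K27ac (35) and no PHF6 there. Il2rg, the shared cytokine receptor chain, had start-site H3K27ac of 22, no PHF6 there and 1 PHF6 peak of height 16 in its window. These genes were chosen after their values were seen, and the values are given as description.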
